A study of Mus musculus with 9 samples.

Results

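Interferon-induced genes and immunity GTPases were followed across 9 liver RNA libraries of mice, each taken here as a separate liver. The set holds 34 of the 37583 genes in the deposited table, found by their gene symbols: 23 genes known to be induced by type I interferon and 11 GTPases known to be induced by interferon gamma. All 34 had a row in the table, and all 34 passed the filter on low values that left 20029 genes for testing. The GTPases were 4 guanylate-binding proteins (Gbp2, Gbp3, Gbp6 and Gbp7) and 7 genes grouped here as immunity-related GTPases (Iigp1, Igtp, Irgm1, Irgm2, Ifi47, Tgtp1 and F830016B08Rik).

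The study used loss of the glucagon receptor gene (Gcgr) and an antibody that blocks the receptor, both of which raise the growth of pancreatic alpha cells, to look at the liver. All animals were male C57Bl6 mice of 16 to 20 weeks that had fasted for 6 h. There were 3 groups of 3 livers: Gcgr+/+ mice given PBS (wild-type PBS), Gcgr-/- mice given PBS (knockout-labelled), and Gcgr+/+ mice given 10 mg/kg of a humanized antibody to the receptor (antibody-labelled). Injections of PBS or antibody went into the peritoneum once a week over 10 days. No control antibody group is labelled, so binding of the receptor and exposure to a foreign antibody cannot be told apart. The labels give neither the construct of the Gcgr-/- allele nor whether the groups were littermates, and they say that libraries were separate samples only through their numbers, so p-values measure the spread between these samples.

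Gcgr mRNA did not follow the genotype label. It lay between 17565 and 19547 normalized counts in wild-type PBS libraries, between 19656 and 27365 in knockout-labelled libraries and between 1808 and 2496 in antibody-labelled libraries. Its mean stood at 122.7% of wild-type PBS in knockout-labelled livers and at 11.8% in antibody-labelled livers. A value per gene does not show which exons were read. Whether labels or columns were exchanged between groups was not tested. Groups are therefore named by their labels throughout, and every direction below refers to a label. Estimated reads assigned to genes ran from 10.99 to 30.1 M per library (M, mega). Knockout-labelled library 1 had the fewest reads and stood apart on the first principal component (22.9% of the variance), at 84.3 against -19.2 to 1.71 for the other 8 libraries. The hepatocyte genes Alb, Apoa1 and Ttr, coding for abundant plasma proteins, were high in all 9 libraries, as the tissue label says.

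Interferons are secreted signals that cells release on sensing foreign or misplaced nucleic acid. Type I interferons act through the receptor of Ifnar1 and Ifnar2 and the kinases Jak1 and Tyk2, which lead to a complex with Stat2 and Irf9 that binds interferon-stimulated response elements. Interferon gamma acts through Ifngr1 and Ifngr2, Jak1 and Jak2, and leads to binding at gamma-activated sites, and it also raises Irf1, a transcription factor for a later round of targets. The immunity GTPases that follow are known in mice for acting on the vacuoles in which intracellular pathogens live, and hepatocytes as well as macrophages of the liver can make them.

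The start regions of 8 members are shown because they carry these elements, alone, repeated or paired. Sequences are from RefSeq on GRCm38.p6, 120 bases before the annotated start, 5′ to 3′ on the gene's strand. Capitals mark matches on either strand to GAAANNGAAA, a core of the response element that interferon regulatory factors bind, or to TTCNNNGAA, the gamma-activated site, and neighbouring core matches can overlap.
Isg15 (chr4:156200819-156200938, minus strand): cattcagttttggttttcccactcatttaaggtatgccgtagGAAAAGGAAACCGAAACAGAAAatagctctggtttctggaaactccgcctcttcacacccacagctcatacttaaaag
Ifit1 (chr19:34640769-34640888, plus strand): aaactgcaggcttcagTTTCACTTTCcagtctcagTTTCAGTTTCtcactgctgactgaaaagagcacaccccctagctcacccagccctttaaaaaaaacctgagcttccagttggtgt
Irf1 (chr11:53769894-53770013, plus strand): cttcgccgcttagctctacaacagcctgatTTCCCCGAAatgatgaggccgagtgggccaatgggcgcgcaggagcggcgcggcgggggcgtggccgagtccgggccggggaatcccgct
Gbp2 (chr3:142620543-142620662, plus strand): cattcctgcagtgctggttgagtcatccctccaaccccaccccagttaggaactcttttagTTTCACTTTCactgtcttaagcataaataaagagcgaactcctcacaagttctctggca
Irgm1 (chr11:48871421-48871540, minus strand): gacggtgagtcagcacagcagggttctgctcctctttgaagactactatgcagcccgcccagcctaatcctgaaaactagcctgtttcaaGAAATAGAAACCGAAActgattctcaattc
Igtp (chr11:58199436-58199555, plus strand): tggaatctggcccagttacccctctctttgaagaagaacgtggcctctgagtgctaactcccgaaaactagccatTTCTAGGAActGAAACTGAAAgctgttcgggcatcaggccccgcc
Irgm2 (chr11:58214857-58214976, plus strand): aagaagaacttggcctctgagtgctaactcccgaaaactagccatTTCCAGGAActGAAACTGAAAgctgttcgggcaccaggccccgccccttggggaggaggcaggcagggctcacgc
Tgtp1 (chr11:48992247-48992366, minus strand): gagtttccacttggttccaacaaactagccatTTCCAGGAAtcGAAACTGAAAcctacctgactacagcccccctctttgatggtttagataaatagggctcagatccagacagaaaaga

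In the whole windows, from 250 bases before to 50 after the start, 26 of the 34 members had an entry. The core GAAANNGAAA was found in 10 of 18 type I-induced genes (55.6%) and in 7 of 8 GTPases (87.5%), against 3.99% of all 27025 genes with an entry. TTCNNNGAA was found in 3 of 18 type I-induced genes (16.7%) and in 4 of 8 GTPases (50.0%), against 9.55% of all genes. In Igtp, Irgm2 and Tgtp1 the gamma-activated site stood 2 bases before the core. In Igtp they began 45 and 34 bases before the start, in Irgm2 75 and 64 bases before it, and in Tgtp1 88 and 77 bases before it. Isg15 held 3 overlapping cores that began 78, 72 and 66 bases before the start, and Irf1 held only a gamma-activated site, 90 bases before it. These matches describe letters in a window and say nothing about what was bound in these livers.

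One member of 34 differed between the groups past the test, and it was a GTPase, F830016B08Rik. In bulk liver RNA, fewer cells of a type and less RNA per cell cannot be told apart in this or any later value. In knockout-labelled against wild-type PBS livers, limma with Benjamini-Hochberg adjustment over all genes called 0 members higher and 1 lower. Of all genes tested, 0.0599% were called higher and 0.0949% lower in that comparison. In antibody-labelled against wild-type PBS livers no member was called, against 0.714% of all genes higher and 0.624% lower, while 5 of 34 had an unadjusted limma p under 0.05, as had 10.3% of all genes. In antibody-labelled against knockout-labelled livers 1 member was called higher and 0 lower, against 0.19% and 0.0899% of all genes. None of the 23 type I-induced genes was called by limma in any comparison, and 2, 4 and 5 of them had an unadjusted p under 0.05 in the 3 comparisons in that order. Of all genes tested, 13.8%, 10.3% and 13.3% had one. With weights per library, limma called 1 type I-induced gene (Irf9) and F830016B08Rik lower in antibody-labelled against wild-type PBS livers. That setting called 666 of the 20029 genes in this comparison, against 268 in the main fit.

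**Figure D1:**
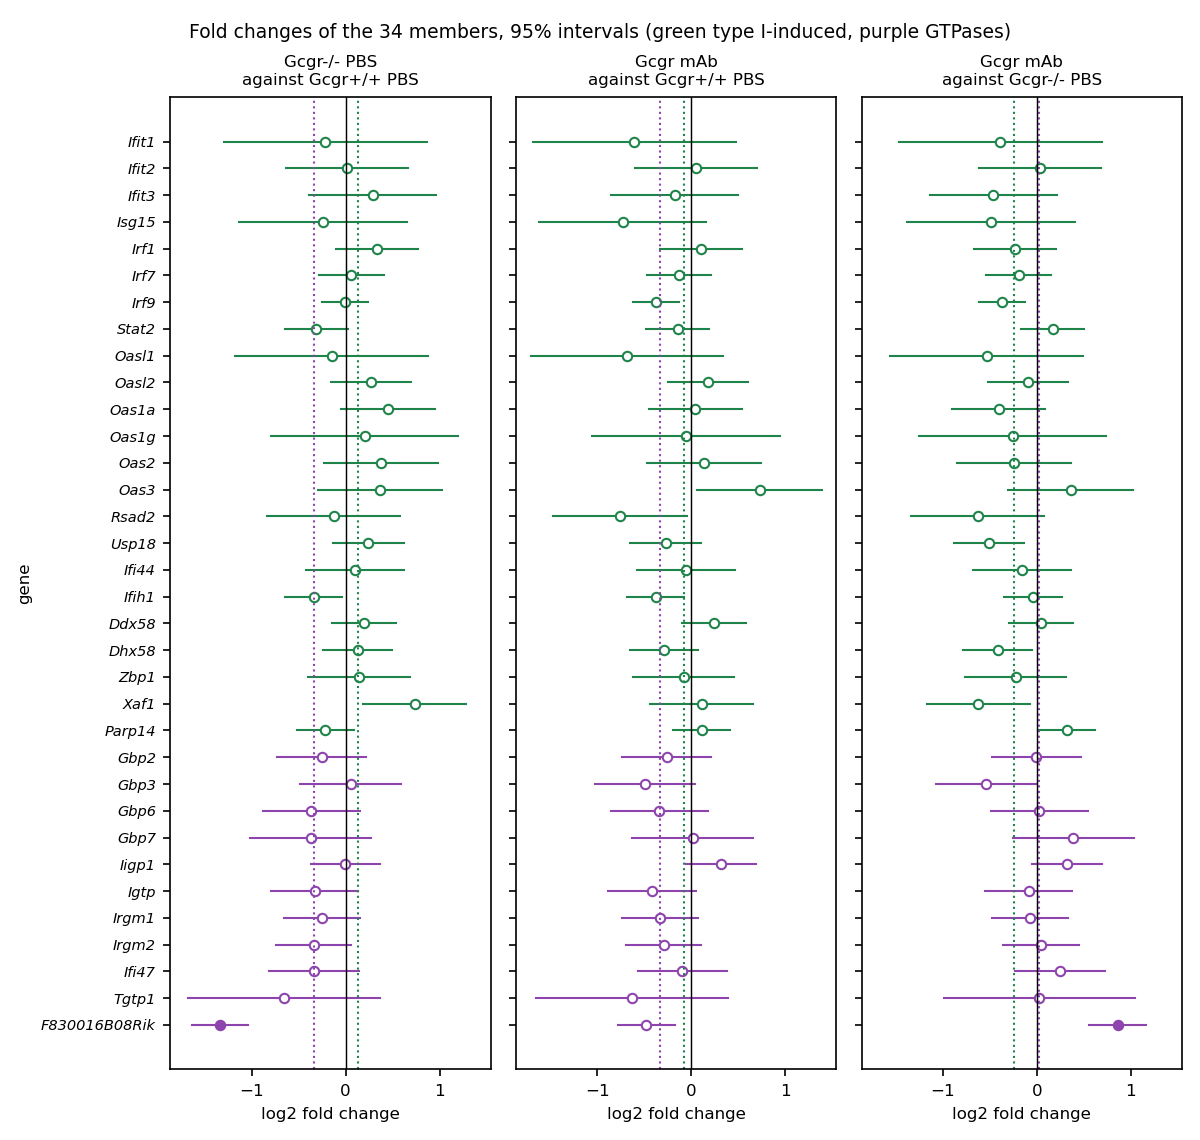
Log2 fold changes of the 34 members (points) with 95% intervals (lines) in the 3 comparisons, type I-induced genes in green and GTPases in purple; filled points passed the test and dotted lines are the medians of each kind. F830016B08Rik stands out at -1.34 in knockout-labelled against wild-type PBS and at 0.86 in antibody-labelled against knockout-labelled livers, and most other intervals cross 0.

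F830016B08Rik (ENSMUSG00000090942, mm9 chromosome 18, 60453034 to 60462670, plus strand) is annotated by its clone name, and its own function is not described here. It measured 2267, 2249 and 2073 normalized counts in wild-type PBS libraries 1 to 3, 831, 776 and 1013 in knockout-labelled libraries, and 1773, 1669 and 1318 in antibody-labelled libraries. The 3 groups did not overlap: all knockout-labelled libraries lay lowest, all wild-type PBS libraries highest, and the antibody-labelled libraries between them. Means were 2197 ± 107 in wild-type PBS, 874 ± 124 in knockout-labelled and 1587 ± 238 in antibody-labelled livers (SD, n = 3 each).

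The gene thus stood at 39.8% of wild-type PBS in knockout-labelled livers, a fall of 1.34 on the log2 scale that is larger than the spread between replicates (SE 0.14, 95% interval -1.64 to -1.04, limma adjusted p = 0.00664). In antibody-labelled livers it stood at 72.2% of wild-type PBS, which did not pass (log2 fold change -0.48, interval -0.78 to -0.18, limma adjusted p = 0.158). Antibody-labelled livers held 1.82 times the level of knockout-labelled livers (log2 fold change 0.86, SE 0.14, limma adjusted p = 0.0417). The fall in knockout-labelled livers was called without any single library, at log2 fold changes of -1.45 to -1.26, and was lost only when limma ran without a trend or robust estimation (adjusted p = 0.135). The difference between antibody-labelled and knockout-labelled livers was not called by limma without wild-type PBS library 1 or 2, knockout-labelled library 1 or 2, or antibody-labelled library 1 or 2, with adjusted p between 0.0545 and 0.167. It was also lost with a pseudocount of 10, with only the 6 libraries compared, with a replicate block, without trend or robust estimation, and with weights per library (limma adjusted p = 0.0542 to 0.152), and so in 11 of 18 alternatives. Without a wild-type PBS library the fold change stayed at 0.86, since those libraries enter that comparison through the shared spread alone.

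On chromosome 18, F830016B08Rik stands among other genes of its kind, and these were looked at after its own value was seen. Gm4951, a further immunity-related GTPase 45.6 kb away, measured 7280.1, 6832 and 5860 normalized counts in wild-type PBS libraries, 4025, 4389 and 4980.0 in knockout-labelled libraries, and 6395, 5057 and 4728 in antibody-labelled libraries. All knockout-labelled libraries lay below all wild-type PBS libraries, and the antibody-labelled ones overlapped both groups. The log2 fold change in knockout-labelled against wild-type PBS livers was -0.58 (SE 0.14) and did not pass (limma adjusted p = 0.105). Gm4841, 20.1 kb away on the other strand and read at very low depth, measured 25.7, 26.9 and 26.0 normalized counts in wild-type PBS libraries, 7.45, 7.85 and 15.0 in knockout-labelled libraries, and 9.63, 18.3 and 12.7 in antibody-labelled libraries. Both other groups lay below wild-type PBS without overlap, but neither difference passed (log2 fold changes -1.36 and -0.94, limma adjusted p = 0.157 and 0.411).

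Iigp1, the neighbour 73.0 kb away on the same strand, gave no such separation of knockout-labelled livers. It codes for a GTPase that is known in mice for loading onto the parasite vacuole of Toxoplasma. Iigp1 (ENSMUSG00000054072) measured 17299, 17739.8 and 14269 normalized counts in wild-type PBS libraries, 12196, 17745 and 20143 in knockout-labelled libraries, and 21872, 20058 and 19282.5 in antibody-labelled libraries. The knockout-labelled libraries spanned the wild-type PBS range on both sides, and all antibody-labelled libraries lay above all wild-type PBS libraries. Its log2 fold change was -0.00 in knockout-labelled against wild-type PBS livers (95% interval -0.37 to 0.37, limma adjusted p = 0.998). In antibody-labelled against wild-type PBS livers the log2 fold change was 0.32 (interval -0.05 to 0.69, limma adjusted p = 0.603), which did not pass. The difference between Iigp1 and F830016B08Rik in their response was not tested.

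**Figure D2:**
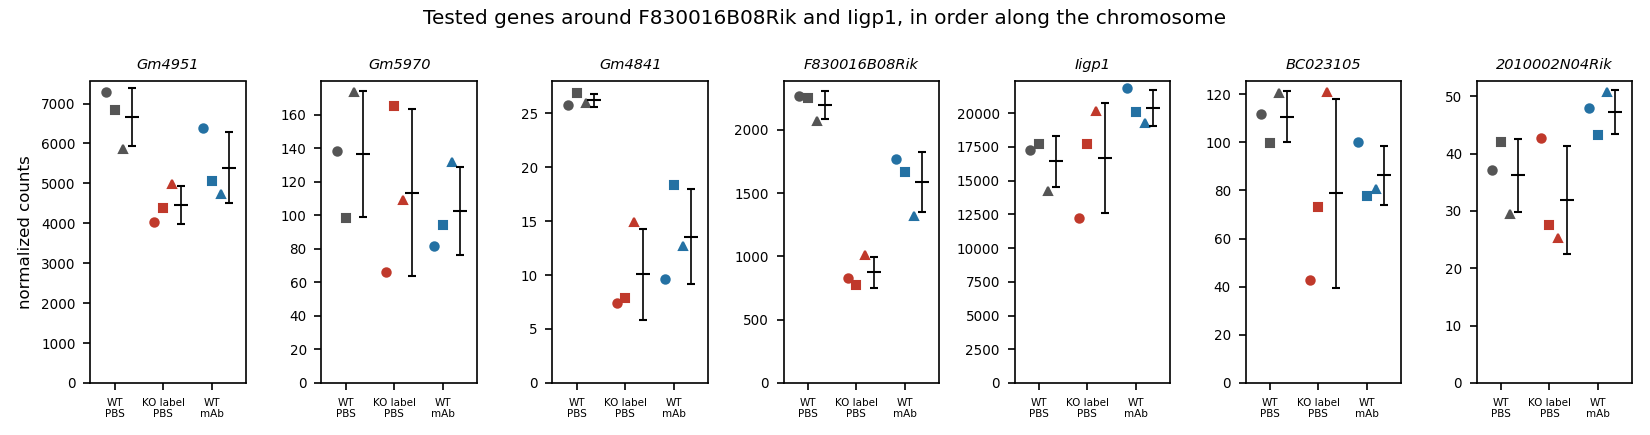
Normalized counts in each library for the 7 tested genes around F830016B08Rik and Iigp1, in order along the chromosome, with mean ± SD beside the points (n = 3; circles, squares and triangles are libraries 1, 2 and 3). F830016B08Rik, Gm4951 and Gm4841 lie lower in every knockout-labelled library than in any wild-type PBS library, as do 9.35% of all genes tested. Gm5970, Iigp1, BC023105 and 2010002N04Rik do not.

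The other immunity-related GTPases lie on chromosome 11. Igtp and Irgm2 start regions, which share the paired elements shown above, belong to genes 7.44 kb apart on the same strand. Igtp, also called Irgm3 and known as a regulator of the family, measured 1760.5, 1882 and 1245 normalized counts in wild-type PBS libraries, 927, 1309 and 1713 in knockout-labelled libraries, and 1339.9, 1117 and 1155 in antibody-labelled libraries. Antibody-labelled libraries 2 and 3 lay below every wild-type PBS library, antibody-labelled library 1 did not, and the log2 fold change of -0.42 did not pass (interval -0.88 to 0.05, limma adjusted p = 0.561).

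Irgm1 and Irgm2, like Igtp, are regulators that hold the effector GTPases inactive on the cell's own membranes. Irgm1 measured 3432, 3321 and 2692 normalized counts in wild-type PBS libraries, 1912, 2783 and 3405 in knockout-labelled libraries, and 2781, 2294 and 2421 in antibody-labelled libraries. Irgm2 measured 3427, 3545 and 2605 normalized counts in wild-type PBS libraries, 1826, 2748 and 3096 in knockout-labelled libraries, and 2868, 2438.5 and 2448 in antibody-labelled libraries. In both genes wild-type PBS library 3 lay inside the range of the antibody-labelled group and knockout-labelled library 1 lay lowest of all 9. Neither passed in either comparison with wild-type PBS: Irgm1 had log2 fold changes of -0.25 and -0.33 (limma adjusted p = 0.583 and 0.628) and Irgm2 of -0.34 and -0.30 (0.442 and 0.693).

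Ifi47 and Tgtp1 code for further interferon-inducible GTPases of the same family. Ifi47 measured 1012, 1117 and 801 normalized counts in wild-type PBS libraries, 515, 830.1 and 1046 in knockout-labelled libraries, and 945, 882 and 894 in antibody-labelled libraries. Tgtp1 measured 47.4, 33.7 and 79.8 normalized counts in wild-type PBS libraries, 14.2, 38.1 and 57.2 in knockout-labelled libraries, and 34.1, 36.1 and 27.2 in antibody-labelled libraries. Every pair of groups overlapped in both genes, and both were lowest of all 9 in knockout-labelled library 1, where Tgtp1 rests on an estimated 3 reads. No comparison of either gene passed: the largest log2 fold change was -0.66 for Tgtp1 in knockout-labelled against wild-type PBS livers (interval -1.68 to 0.36, limma adjusted p = 0.573). Tgtp1 has a near-identical copy, Tgtp2, and both Ifi47 and Tgtp1 overlap other annotated genes, so their values are uncertain as to the copy read.

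Guanylate-binding proteins assemble on pathogen membranes and help open them. Gbp2 measured 265, 266 and 461 normalized counts in wild-type PBS libraries, 265, 256 and 279 in knockout-labelled libraries, and 299, 224 and 279.9 in antibody-labelled libraries. Wild-type PBS library 3 stood alone at 461, above the 8 other libraries. Gbp3 measured 334, 277 and 486 normalized counts in wild-type PBS libraries, 258, 415 and 468 in knockout-labelled libraries, and 269.5, 261 and 229 in antibody-labelled libraries. All antibody-labelled libraries lay below all wild-type PBS libraries for Gbp3, and the log2 fold change of -0.49 did not pass (interval -1.03 to 0.04, limma adjusted p = 0.543).

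Gbp6 and Gbp7 gave no separation of groups. Gbp6, which has the close copy Gbp10, measured 218, 181 and 190.2 normalized counts in wild-type PBS libraries, 112, 188 and 167 in knockout-labelled libraries, and 203, 137 and 132 in antibody-labelled libraries. Gbp7 measured 1013, 781 and 762 normalized counts in wild-type PBS libraries, 406, 724 and 940.3 in knockout-labelled libraries, and 1015, 976 and 625 in antibody-labelled libraries. Ranges overlapped in every pair of groups, and the 4 guanylate-binding proteins had limma adjusted p from 0.531 to 0.951 in knockout-labelled against wild-type PBS livers.

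**Figure D3:**
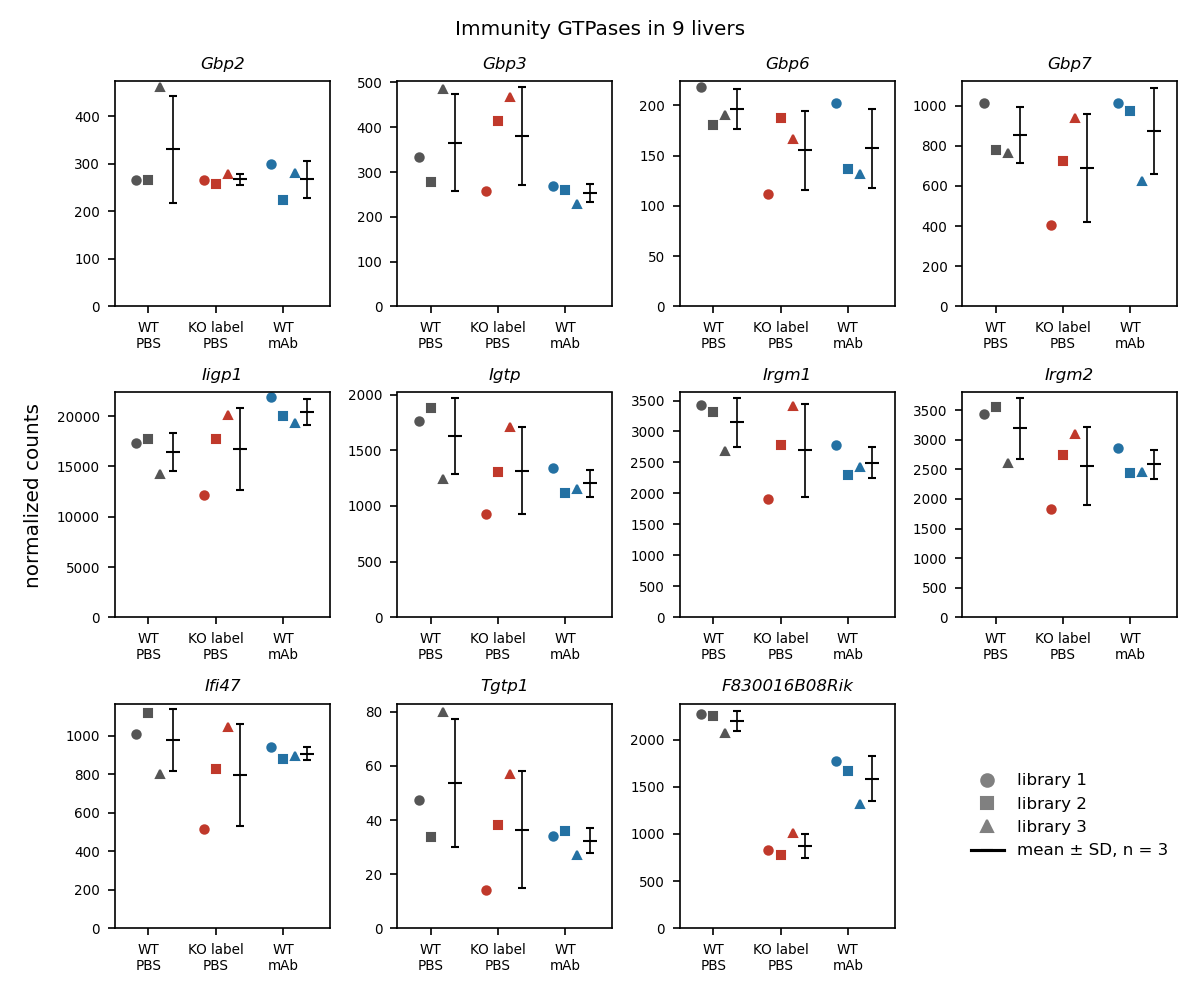
Normalized counts of the 11 GTPases in each of the 9 livers, with mean ± SD beside the points (n = 3; circles, squares and triangles are libraries 1, 2 and 3 of a group). F830016B08Rik is the single panel with 3 separate groups, Gbp2 is raised in wild-type PBS library 3 alone, and in most panels the red circle, knockout-labelled library 1, is the lowest point.

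As a group, 10 of the 11 GTPases had a negative fold change in knockout-labelled and 9 of 11 in antibody-labelled against wild-type PBS livers, comparisons that share the same 3 wild-type PBS livers. The median log2 fold changes were -0.34 and -0.33, beside -0.01 and 0.00 over all genes tested. Without knockout-labelled library 1 the first median was -0.10. The second lay between -0.41 and -0.26 when any 1 library was left out. Markers of T and NK cells had medians of -0.66 (15 of 17 negative) and -0.45 (13 of 17 negative) in the same comparisons. Their median deviation from the mean of 9 libraries was -0.22, -0.03 and 1.08 in wild-type PBS libraries 1 to 3. It was -0.27, -0.21 and 0.19 in knockout-labelled and 0.02, -0.06 and -0.26 in antibody-labelled libraries. The GTPases stood at -0.02 in wild-type PBS library 3, and a link between the lists was not tested. By non-overlap, 1 of 11 GTPases lay lower (9.09%) and none higher in knockout-labelled livers, near the 9.35% of all genes that lay lower and below the 7.09% that lay higher. In antibody-labelled livers 2 lay lower (18.2%, Gbp3 and F830016B08Rik) and 1 higher (9.09%, Iigp1) than wild-type PBS, against 9.54% and 9.65% of all genes. In antibody-labelled against knockout-labelled livers the median was 0.03, or -0.18 without knockout-labelled library 1, with 1 of 11 higher (9.09%) and none lower, against 9.82% and 7.38% of all genes.

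The type I-induced genes were summarised by fold changes of both signs. In knockout-labelled against wild-type PBS livers 15 were positive and 8 negative, with a median of 0.13 on the log2 scale, which was -0.06 without knockout-labelled library 3 and 0.32 without knockout-labelled library 1. In antibody-labelled against wild-type PBS livers 9 were positive and 14 negative (median -0.08), and in antibody-labelled against knockout-labelled livers 5 were positive and 18 negative (median -0.24, or -0.02 without knockout-labelled library 3). In knockout-labelled against wild-type PBS livers 1 of 23 lay higher (4.35%, Xaf1) and 1 lower (4.35%, Ifih1) without overlap. Both shares were below the 7.09% and 9.35% of all genes. In antibody-labelled against wild-type PBS livers 6 of 23 lay lower (26.1%: Ifit1, Isg15, Irf9, Rsad2, Usp18 and Ifih1) and 1 higher (4.35%, Oas3), beside the 9.54% and 9.65% of all genes given above. In antibody-labelled against knockout-labelled livers 3 lay lower (13.0%: Irf9, Usp18 and Xaf1) and 1 higher (4.35%, Parp14), beside 7.38% and 9.82% of all genes.

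Irf9, the DNA-binding subunit of the type I interferon complex, was the least variable of the members within groups and came nearest to the threshold among the type I-induced genes. It measured 2409, 2357 and 2229 normalized counts in wild-type PBS libraries, 1999.8, 2500.4 and 2517 in knockout-labelled libraries, and 1707, 1873 and 1830.3 in antibody-labelled libraries. All antibody-labelled libraries lay below all 6 others. The log2 fold change was -0.37 against wild-type PBS (SE 0.11, interval -0.62 to -0.13, limma adjusted p = 0.191) and -0.37 against knockout-labelled livers (SE 0.11, limma adjusted p = 0.196), neither past the test, and in knockout-labelled against wild-type PBS livers it was -0.00 (interval -0.25 to 0.24). Weights per library gave limma adjusted p = 0.0322 for Irf9 in antibody-labelled against wild-type PBS livers, a setting that called 666 genes against 268 in the main fit. The span of Irf9 overlaps Rnf31 by 123 bases on the same strand.

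The other transcription factors did not separate the groups. Stat2, a subunit of that complex, measured 2719, 2747 and 2445 normalized counts in wild-type PBS libraries, 1611, 2468 and 2403 in knockout-labelled libraries, and 2431, 2559 and 2175 in antibody-labelled libraries. Irf7, which amplifies type I interferon production, measured 2098, 2037 and 1831 normalized counts in wild-type PBS libraries, 2111, 1588 and 2651 in knockout-labelled libraries, and 1779.6, 1841 and 1807 in antibody-labelled libraries. Irf1, which responds to both kinds of interferon and holds only the gamma-activated site among the elements shown, measured 1127, 1849 and 1861 normalized counts in wild-type PBS libraries, 1674, 2102 and 2203 in knockout-labelled libraries, and 1450.5, 2052 and 1615 in antibody-labelled libraries. Ranges overlapped in every pair of groups for these 3 genes. Their log2 fold changes lay between -0.31 and 0.33 and the lowest limma adjusted p was 0.400, for Stat2 in knockout-labelled against wild-type PBS livers.

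Isg15, a small protein that is coupled to other proteins, and Usp18, the enzyme that removes it and also damps the type I receptor, had their lowest group means in antibody-labelled livers. Isg15 measured 289.7, 346 and 236 normalized counts in wild-type PBS libraries, 118, 255 and 475 in knockout-labelled libraries, and 197, 169 and 153 in antibody-labelled libraries. Usp18 measured 775, 615 and 581 normalized counts in wild-type PBS libraries, 666, 681 and 1007 in knockout-labelled libraries, and 569.8, 522 and 529 in antibody-labelled libraries. Antibody-labelled libraries lay below wild-type PBS without overlap in both genes, and Isg15 ran from the lowest to the highest of all 9 libraries within the knockout-labelled group. The log2 fold change in antibody-labelled against wild-type PBS livers was -0.73 for Isg15 (interval -1.62 to 0.16, limma adjusted p = 0.626) and -0.27 for Usp18 (interval -0.65 to 0.11, limma adjusted p = 0.703), and neither passed. Usp18 was -0.51 against knockout-labelled livers (interval -0.89 to -0.13, limma adjusted p = 0.240).

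The cytosolic RNA sensors rest on at least 140.9 estimated reads in each library. Ifih1, the sensor of long double-stranded RNA also called MDA5, measured 2223, 1986 and 2127 normalized counts in wild-type PBS libraries, 1377, 1707 and 1973 in knockout-labelled libraries, and 1574, 1844 and 1469 in antibody-labelled libraries. Every library of both other groups lay below every wild-type PBS library, with log2 fold changes of -0.34 and -0.38 that did not pass (limma adjusted p = 0.310 and 0.324). Dhx58, a regulator of that sensor, measured 857, 876 and 682 normalized counts in wild-type PBS libraries, 668, 1008 and 990.0 in knockout-labelled libraries, and 659, 689 and 617 in antibody-labelled libraries. Its groups overlapped, and the log2 fold change in antibody-labelled against knockout-labelled livers was -0.42 (limma adjusted p = 0.315). Ddx58, the sensor RIG-I, had log2 fold changes between 0.04 and 0.24, none past the test.

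Xaf1 and Oas3 ran in other directions. Xaf1, a pro-apoptotic interferon target, measured 129, 101 and 169.8 normalized counts in wild-type PBS libraries, 194, 230.4 and 229.9 in knockout-labelled libraries, and 104, 190.1 and 141 in antibody-labelled libraries. All knockout-labelled libraries lay above all 6 others, with log2 fold changes of 0.73 in knockout-labelled against wild-type PBS (interval 0.19 to 1.28, limma adjusted p = 0.221) and -0.62 in antibody-labelled against knockout-labelled livers (limma adjusted p = 0.316). Oas3, one of the synthetases that make the messenger for RNase L, measured 47.9, 52.6 and 31.6 normalized counts in wild-type PBS libraries, 51.98, 79.1 and 42.2 in knockout-labelled libraries, and 72.8, 60.4 and 84.4 in antibody-labelled libraries. Antibody-labelled libraries lay above wild-type PBS without overlap, and the log2 fold change of 0.73 did not pass (interval 0.06 to 1.39, limma adjusted p = 0.424).

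Of the remaining type I-induced genes, those of the RNA-binding Ifit proteins and Rsad2, the antiviral enzyme viperin, were lowest in library 1 and highest in library 3 of the knockout-labelled group. Rsad2 lay between 1019 and 1354 normalized counts in wild-type PBS, between 678 and 1866 in knockout-labelled and between 555 and 783 in antibody-labelled libraries, and the antibody-labelled libraries lay below wild-type PBS without overlap. Its log2 fold change in antibody-labelled against wild-type PBS livers was -0.76 (interval -1.47 to -0.05, limma adjusted p = 0.443). Ifit1 lay between 415 and 651 in wild-type PBS, between 194 and 916 in knockout-labelled and between 297 and 365 normalized counts in antibody-labelled libraries, with a log2 fold change of -0.61 against wild-type PBS that did not pass (limma adjusted p = 0.795). Ifit2, Ifit3, Oasl1, Oasl2, Oas1a, Oas1g, Oas2, Ifi44, Zbp1 and Parp14 had log2 fold changes from -0.68 to 0.45 in the 3 comparisons, none past the test. Oas1a and Oas1g, and Ifit3 with its copy Ifit3b, are close paralogs whose reads may be split between copies.

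**Figure D4:**
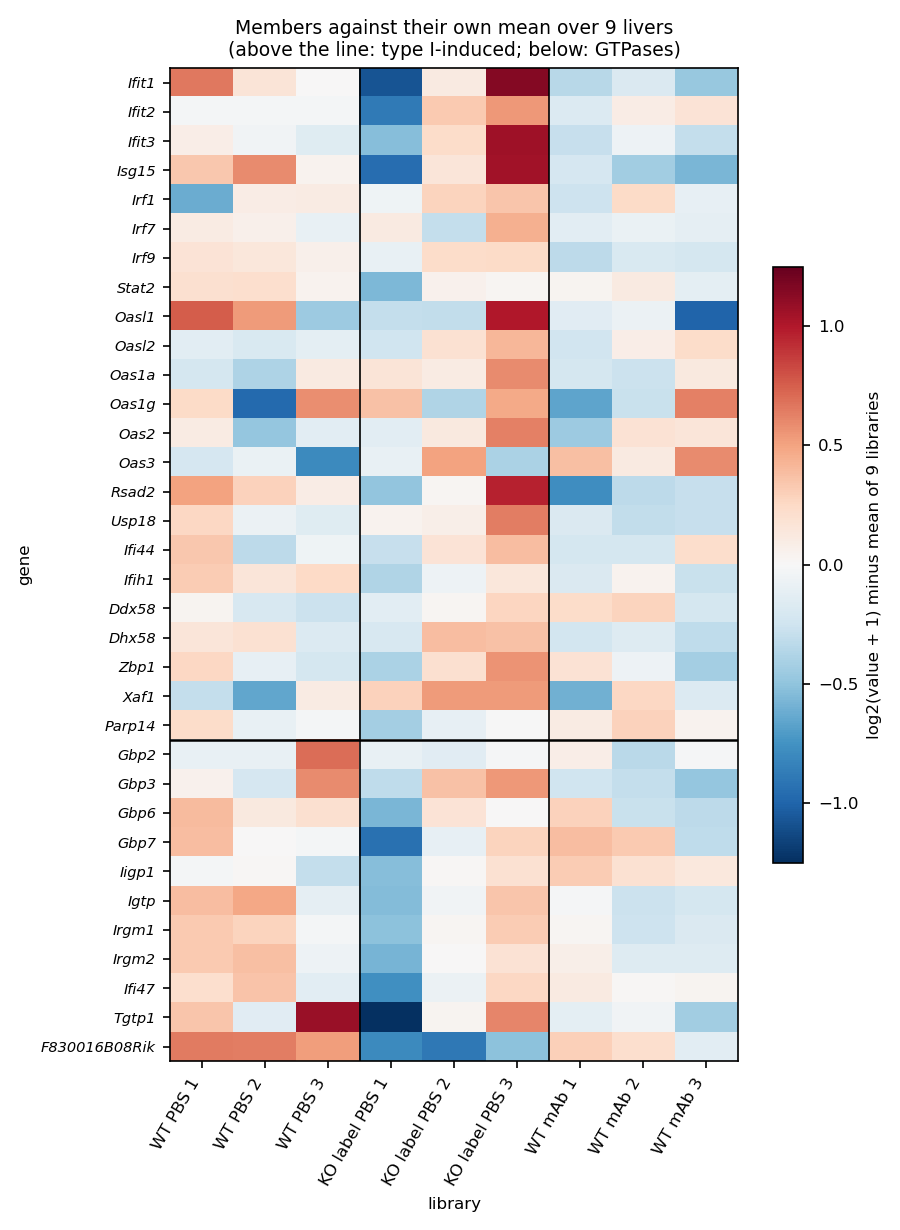
Log2(value + 1) of each member minus its mean over the 9 libraries, with type I-induced genes above the line and GTPases below it; red is above the gene's own mean and blue below. The column of knockout-labelled library 1 is mostly blue and that of library 3 mostly red, and F830016B08Rik alone is blue in all 3 knockout-labelled and red in all 3 wild-type PBS columns among the GTPases.

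Inside the knockout-labelled group, most members were lowest in library 1 and highest in library 3. Library 1 was the lowest of its group in 18 of 23 type I-induced genes and 9 of 11 GTPases, and library 3 was the highest in 19 and in 10. These counts and the ratios that follow were not made over all genes. Of 20029 genes tested, 8697 lay above their own mean over 9 libraries in library 1 and 9967 in library 3. The same counts were 5 and 21 of 23 for type I-induced genes, and 0 and 9 of 11 for GTPases. The median ratio of the highest to the lowest library of a group was 1.60 for type I-induced genes and 1.78 for GTPases in knockout-labelled livers. In wild-type PBS livers these ratios were 1.33 and 1.36, and in antibody-labelled livers 1.31 and 1.21. Antibody-labelled library 1 was the highest of its group in 10 of 11 GTPases but in only 3 of 23 type I-induced genes. The median within-group SD was 0.314 on the log2 scale for type I-induced genes and 0.310 for GTPases, beside 0.256 over all genes tested, and without knockout-labelled library 1 these were 0.273, 0.239 and 0.232. It ranged from 0.121 for Irf9 to 0.679 for Ifit1 and 0.685 for Tgtp1.

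Set against each other in each library, the 2 kinds of gene differed by amounts that varied between libraries. The median deviation from the mean of 9 libraries was 0.17, -0.05 and -0.03 for type I-induced genes in wild-type PBS libraries 1 to 3, -0.25, 0.13 and 0.47 in knockout-labelled libraries, and -0.22, -0.07 and -0.17 in antibody-labelled libraries. For GTPases it was 0.33, 0.12 and -0.02 in wild-type PBS libraries, -0.57, 0.01 and 0.26 in knockout-labelled libraries, and 0.08, -0.16 and -0.18 in antibody-labelled libraries. The GTPases lay above the type I-induced genes by 0.16 and 0.17 in wild-type PBS libraries 1 and 2. In wild-type PBS library 3 they were level, with a difference of 0.01. In knockout-labelled libraries the GTPases lay below, with differences of -0.32, -0.12 and -0.21. The library medians had an SD between replicates of 0.225 for type I-induced genes and 0.278 for GTPases. In antibody-labelled libraries the differences were 0.30, -0.10 and -0.01. Without F830016B08Rik the values were 0.16, 0.11 and 0.00 in wild-type PBS and -0.30, -0.12 and -0.20 in knockout-labelled libraries, a description of these 34 genes for which no test was made.

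**Figure D5:**
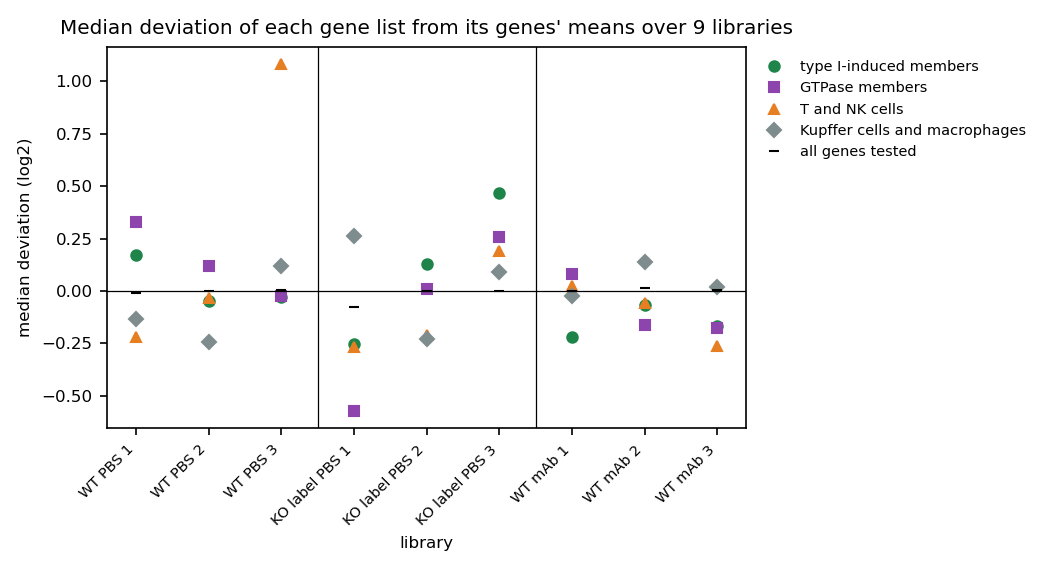
Median deviation (log2) of each gene list from its genes' means over the 9 libraries, for type I-induced members, GTPase members, markers of T and NK cells, markers of Kupffer cells and macrophages, and all genes tested. T and NK cell markers reach 1.08 in wild-type PBS library 3, and the members spread from below to above 0 within the knockout-labelled group while all genes stay near 0.

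Markers of blood and liver immune cells were read beside these values. Markers of T and NK cells had a median deviation of 1.08 in wild-type PBS library 3 and of at most 0.19 in the others, and this was the library where Gbp2 stood alone at 461 normalized counts. The GTPases as a list did not peak there: that library was the lowest of its group in 7 of 11 and the highest in 3, with a median deviation of -0.02. Cd8a, which marks cytotoxic T cells, lay at 109 normalized counts there and between 4.36 and 31.3 in the others. The class II genes and chemokines induced by interferon gamma had a median deviation of 0.59 there, and Cxcl9, a chemokine that draws T cells, lay at 417 normalized counts against 137 to 297 in the others. All 17 markers of T and NK cells passed the filter, and their summed level ran from 1153 to 1268 normalized counts in wild-type PBS, 513 to 953 in knockout-labelled and 348 to 459.8 in antibody-labelled libraries. Much of that sum came from Zap70, which acts at the T cell receptor, at 374 to 879 normalized counts in wild-type PBS and 21.8 to 62.1 in antibody-labelled libraries, the 1 marker of the list called (lower, limma adjusted p = 0.0053). Ncr1, which marks NK cells, lay at or under 8.65 normalized counts in every library.

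The 15 markers of Kupffer cells and macrophages summed to 29323 to 38328 normalized counts in wild-type PBS, 30337.5 to 44699.7 in knockout-labelled and 34203 to 38046 in antibody-labelled libraries, with none called by limma. Their median deviation was highest, at 0.26, in knockout-labelled library 1, where the GTPases were lowest. Hepatocyte markers also summed highest there, to 2633730 normalized counts. That library had the largest sum of all normalized values, 52.1 M against 42.4 to 47.4 M in the others. Its 10 highest genes made up 8.55% of the sum, against 6.26% to 7.26% in the others. Markers of B cells (7 tested), plasmacytoid dendritic cells (5), neutrophils (7) and sinusoidal endothelial cells (8) gave 0 calls in all comparisons. Of all genes, 0.0599% to 0.714% were called per direction, so 0 calls in short lists do not show an unchanged cell make-up. In antibody-labelled against wild-type PBS livers, 3 endothelial markers lay higher without overlap (37.5%, against 9.65% of all genes) and 0 lower. All 7 neutrophil markers had positive fold changes there (median 0.43). The part of cell make-up, of depth or of RNA quality in any result of the members was not tested.

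The genes upstream of the members gave few differences. Of 20 interferon genes matched to the table, Ifng and Ifnk passed the filter. Ifnb1 was listed at the table's floor of 1 in all 9 libraries, and Ifng lay between the floor and 6.34 normalized counts, at the worth of a few reads. The 19 genes of interferon receptors and JAK-STAT signalling gave 0 calls by limma in any comparison (2, 2 and 3 at an unadjusted p under 0.05, beside 13.8%, 10.3% and 13.3% of all genes), with medians of 0.04, 0.02 and 0.01 on the log2 scale. The receptor genes Ifngr1, Ifngr2, Ifnar1 and Ifnar2 had log2 fold changes against wild-type PBS from -0.35 to 0.37, and Jak1, Jak2 and Tyk2 from -0.01 to 0.17, none past the test. Socs1, the feedback inhibitor of these kinases, lay between 4.74 and 40.1 normalized counts, too low to show a moderate difference.

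Lists of other targets of the same pathways gave 0 calls by limma, and a list of nucleic acid sensing gave 1. Of 45 other type I-induced genes tested, 0 were called in each comparison (11, 8 and 9 at an unadjusted p under 0.05, beside 13.8%, 10.3% and 13.3% of all genes), with medians of 0.07, -0.01 and -0.10. Of 18 other immunity GTPases, 0 were called (3 at an unadjusted p under 0.05 in each comparison, beside those same shares of all genes), with medians of -0.28 and -0.24 against wild-type PBS and 0.26 in antibody-labelled against knockout-labelled livers. The row named Gbp1 was the nearest to the threshold there and was picked for that: it measured 85.0, 79.9 and 138 normalized counts in wild-type PBS libraries, 56.8, 56.5 and 63.6 in knockout-labelled libraries, and 133, 199 and 131 in antibody-labelled libraries (antibody-labelled against knockout-labelled, log2 fold change 1.35, limma adjusted p = 0.0641). Class I antigen presentation gave 0 calls of 19 (3, 0 and 4 at an unadjusted p under 0.05, beside the same shares), Psmb8 of the immunoproteasome having log2 fold changes of 0.47 and 0.20 and the peptide transporter gene Tap1 of 0.03 and 0.12 against wild-type PBS. Class II genes and interferon gamma chemokines gave 0 calls of 11, also 0 at an unadjusted p under 0.05, with 10 of 11 negative in knockout-labelled and 11 of 11 in antibody-labelled against wild-type PBS livers, where wild-type PBS library 3 is among the controls. Cxcl9 had log2 fold changes of -0.37 and -0.38 in those comparisons (limma adjusted p = 0.645 and 0.808). Of 15 genes of nucleic acid sensing, 1 was called: Myd88, an adaptor of Toll-like receptors. It had a log2 fold change of -0.46 in antibody-labelled against wild-type PBS livers (limma adjusted p = 0.04996). In that comparison 0.624% of all genes were called lower and 0.714% higher. Myd88 lay at 1399 to 1523 normalized counts in wild-type PBS and 1012 to 1133 in antibody-labelled libraries, without overlap. Its adjusted p lies at the threshold, and its call under the alternatives is not given here.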

How the data were processed

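Poly(A)-selected liver RNA was sequenced as paired-end libraries, per the labels' protocols. FastQC, SAMtools and TopHat2 2.0, with build mm9, are named in the submitters' processing notes. How reads were counted and scaled is not given in the sources used here. Per Ensembl gene and library, the authors deposited a normalized signal, called normalized counts, with a floor of 1 at which 15160 genes sat in all 9 libraries. The commonest value above the floor, taken as the worth of 1 read, was 1.50 to 4.74. Only 40.8% to 45.8% of low values (under 10 reads) were whole within 0.01 read, so reads were not recovered and no count model was run.

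Genes with a value above 1 in at least 3 of 9 libraries were tested on log2(value + 1) with limma 3.58.1 in R 4.3.3 (trend and robust estimation). This fit used all 9 libraries with group as factor, two-sided tests, and Benjamini-Hochberg adjustment over 20029 genes at 0.05. Fold changes on that scale understate changes of low genes. The smallest permutation p for 3 against 3 is 0.1, so no permutation test was run. The fit was tested on simulated data, with independent normal noise of the same spread per gene in every library. An outlying library was not simulated, and the outcome is not given here.

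Members and lists were chosen with earlier results of these data known. One further gene of the signalling pathway is not reported here. Library values are given for every GTPase, for Irf1, Irf7, Irf9, Stat2 and Isg15, and for the 6 type I-induced genes with the smallest p in any comparison; other genes are given by range, and Rsad2, Ifit1, Gbp1, Gm4951 and Gm4841 were named after their values were seen. Symbols were matched to the table's own and, where absent, to GENCODE M21 names; the row named Gbp5 carries an identifier that GENCODE names Gbp2b, so names in that cluster are uncertain. Counting by strand is not given, so Irf1, Irf7, Oasl1 and Dhx58, which overlap genes on the other strand, may share reads with them. Gene coordinates are mm9 as deposited, and promoter sequences are RefSeq on GRCm38.p6. Alternatives were the pseudocount, the filter, scaling, the libraries in the fit, a replicate block, the variance model, weights per library, leaving out each library, and, chosen after seeing the data, the type I-induced list without Irf1.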

Additional observations from a re-analysis of the deposited data

How the results depend on the processing

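Across 102 fold changes of members and 18 alternatives each, 1739 of 1836 values kept their call and direction, 12 lost a call and 2 gained one; no called value reversed. A further 83 uncalled values changed sign, 71 of them on leaving out a library, none larger than 0.523. Some alternatives cannot move a fold change: the filters, only the 6 libraries compared, the replicate block and the variance model. Leaving out a library of the group not compared cannot move it either. Most values were also uncalled in the main fit, so the count of kept values overstates stability. F830016B08Rik stayed called in knockout-labelled against wild-type PBS livers in 17 of 18 alternatives (GTPases called 0 without trend or robust estimation). In antibody-labelled against knockout-labelled livers, GTPases called went from 1 to 0 with a pseudocount of 10 (F830016B08Rik adjusted p = 0.0580 by limma), only the 6 libraries compared (0.104), no trend or robust estimation (0.152), library weights (0.0542), and the replicate block (0.0627), and ranged from 0 to 1 over leave-outs. The replicate block changed no other call of a member. Deviations of same-numbered libraries correlated at -0.136 to 0.126, with 1 of 9 pairs over 0.1. These correlations showed no pairing by number, and shared handling or litter was not tested. Library weights called 1 type I-induced gene (Irf9) and 1 GTPase in antibody-labelled against wild-type PBS livers, among 666 genes called. The cause of these changes was not tested.

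Over all genes, knockout-labelled against wild-type PBS gave 31 calls: 65 with no filter, 15 with only the 6 libraries compared, 0 with no trend or robust estimation, 4 to 154 leaving out a library. Antibody-labelled against wild-type PBS gave 268: 71 with no trend or robust estimation, 666 with library weights, 111 to 295 leaving out a library. Antibody-labelled against knockout-labelled gave 56: 23 with a pseudocount of 10, 29 with median-of-ratios scaling, 16 with the 6 libraries, 1 with no trend or robust estimation, 19 with library weights, 1 to 91 leaving out a library. The type I-induced median in that comparison ran from -0.41 to -0.017 over leave-outs, the latter without knockout-labelled library 3. Leaving out Irf1 moved the type I-induced medians to 0.11, -0.11 and -0.25. Depth limits Tgtp1 and Oas1g, the 2 members under 10 estimated reads in some library.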
